A study of Mus musculus with 5 samples.

Results

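The members described here were the probes of an Agilent mouse expression array that carry a RefSeq accession starting with NR_, the prefix RefSeq gives to curated transcripts that are not translated. Every noncontrol probe with such an accession was taken, other than 1 that is not reported here, which gave 2476 of 56605 probes. They stood for 2341 accessions, and a RefSeq gene table named 2210 genes for 2406 of them. The other 70 probes had accessions without an entry in that table and keep the accession as their name. Whole colon of wild-type C57BL/B6 mice was measured on 5 arrays. In the Control group (n = 2) the labels give no treatment, and the study calls these mice untreated. In the NT-3N group (n = 3) the mice had received an intravenous injection of NT-3N, which activates the IL-11 receptor and which the study describes as a modified human IL-11, and the colon was taken 3 hr later. No vehicle injection is given for the controls, so injection and agonist cannot be told apart. The labels give neither age nor sex, and the study used young adult mice for these injections. The question was which of these transcripts differed between the groups, and how the class compared with the 29638 probes for RefSeq mRNAs (prefix NM_).

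The cytokine IL-11 binds a receptor chain of its own, recruits gp130 and activates STAT3, which enters the nucleus and binds palindromic DNA elements. Long non-coding RNAs are transcribed by RNA polymerase II like mRNAs, are often spliced and polyadenylated, and act as scaffolds, as regulators of neighbouring genes, or through the act of their own transcription. Others are precursors. The introns of snoRNA host genes hold the small nucleolar RNAs that guide chemical modification of ribosomal RNA, while their exons are mostly degraded, and many of these genes start with a run of pyrimidines, as ribosomal protein genes do.

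Of the 2210 genes, 1657 had an entry in the RefSeq table of start regions (build GRCm38.p6), which holds 250 bases before and 50 after each annotated start. Probes of 6 snoRNA host genes were higher in NT-3N at an unadjusted p under 0.05, and the start windows of 4 of them are shown because these genes were higher on the same arrays. Of the other two, Snhg6 had no entry and the window of Snhg4 is not shown here. Each window holds 20 bases on either side of the start, on the strand of the gene, and capitals mark its longest run of C and T.
Snhg1, chr19:8723467-8723506, plus strand: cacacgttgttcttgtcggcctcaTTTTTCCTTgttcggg
Snhg5, chr9:88522878-88522917, minus strand: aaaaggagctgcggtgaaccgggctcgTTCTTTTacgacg
Snhg8, chr3:123508317-123508356, minus strand: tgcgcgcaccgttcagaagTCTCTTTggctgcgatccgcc
Snhg12, chr4:132308658-132308697, plus strand: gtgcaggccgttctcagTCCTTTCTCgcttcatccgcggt
A run of at least 7 pyrimidines lay in this window in 8 of the 12 snoRNA host genes on the array that had an entry. The share was 24.3% over all 32851 start regions, and 27.1% over the 838 genes with a kept NR_ probe.

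The start region of D730005E14Rik is shown because this gene was among the largest positive differences and its window held the letters TTCNNNGAA, which read the same on both strands, at 2 places (capitals). This pattern, a consensus for STAT dimers, was present in 8.30% of all start regions. It was found in 1 of the 4 largest positive differences with an entry and in 0 of the 8 largest negative ones.
D730005E14Rik, chr15:79893089-79893388, minus strand: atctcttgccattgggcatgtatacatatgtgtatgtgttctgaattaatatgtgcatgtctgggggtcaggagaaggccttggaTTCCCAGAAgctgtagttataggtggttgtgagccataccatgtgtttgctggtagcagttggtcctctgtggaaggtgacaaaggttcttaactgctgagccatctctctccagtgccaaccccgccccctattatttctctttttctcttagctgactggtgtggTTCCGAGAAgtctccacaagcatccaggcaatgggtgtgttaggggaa
The start region of Fendrr is shown because this RNA, required in the embryo for heart and body wall development, is a close neighbour of the gene for the mesenchymal transcription factor Foxf1, and both were higher in NT-3N. Capitals mark the first 50 transcribed bases.
Fendrr, chr8:121083061-121083360, minus strand: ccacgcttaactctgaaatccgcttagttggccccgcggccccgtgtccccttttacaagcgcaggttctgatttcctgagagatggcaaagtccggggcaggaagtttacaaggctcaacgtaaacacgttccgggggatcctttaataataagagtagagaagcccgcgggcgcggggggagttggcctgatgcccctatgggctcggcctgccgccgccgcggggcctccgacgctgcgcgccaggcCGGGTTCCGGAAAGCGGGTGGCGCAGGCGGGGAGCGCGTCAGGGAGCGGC

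The tissue carried colon markers, since all 9 of the epithelial and muscle genes checked were well above background on every array. Known genes of the gp130-STAT3 response differed between the groups. All 5 genes of a check list for it were higher in NT-3N, 4 of them at an adjusted p under 0.05, where 0.168% of all kept probes passed. Here too injection and agonist cannot be told apart. Other tissue signals varied between arrays. The summed log2 signal of 7 B cell markers was 10.19 on Control 2 and 12.14 to 12.40 on the other 4 arrays. That of 9 smooth muscle markers was 18.86 and 18.91 in Control against 18.39 to 18.74 in NT-3N. All 9 were lower, 4 of them at an unadjusted p under 0.05, where 4.64% of all kept probes were lower. The 9 colon markers, which share Myh11 and Des with that list, were all lower too, 1 of them at that p. So the lower values were not particular to smooth muscle markers. A list of 8 pancreatic enzyme genes, chosen after their values were seen, reached 15.65 on Control 1 and 12.28 on NT-3N 1 against 8.19 to 8.31 on the other arrays. Sums of 6 adipocyte markers ran from 11.99 on NT-3N 3 to 13.66 on Control 1, and of 8 enteric neuron and glia markers from 14.95 to 15.26. Of these 8, 7 were lower in NT-3N and 0 were lower at an unadjusted p under 0.05. The summed log2 signal of 4 neutrophil markers was 16.25 and 16.23 in Control and 15.97 to 16.24 in NT-3N, and most of it came from Csf3r, with a log2 fold change of -0.16. Of the other markers S100a9 read 1.56 and 1.58 in Control and 8.58, 6.23 and 6.65 in NT-3N. S100a8 read 2.57 and 2.51 against 6.21, 4.28 and 5.15, and Mmp8 overlapped between groups. Neither S100a9 nor S100a8 was well above background in Control, so the sizes of their differences were not measured. All arrays lay on 1 slide, and fewer cells of a type and less RNA per cell cannot be told apart in whole tissue.

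On Control 1 a narrow band of spots stood apart. The scanner software flagged 106 noncontrol spots of this array as non-uniform, against 0 to 6 on each of the others. All 106 lay between columns 103 and 132 of 164 and rows 3 and 247 of 384. In this band or just beside it, 124 kept probes read more than 3 log2 units below every other array, and 110 of these had a spot within 3 rows and 3 columns of a non-uniform one. On each of the other arrays 1 to 6 probes read that low. Of the 124, 6 were NR_ probes, namely E130008D07Rik, Gm1976, Gm14296, Tmem238l, Gm20556 and 4931420L22Rik. Gm14296, a protein-coding gene, read 4.80 on Control 1 and 9.42 on Control 2, with 9.73, 9.50 and 9.39 in NT-3N. Tmem238l read 5.77 on Control 1 against 10.38 on Control 2 and 10.54, 9.98 and 9.92 in NT-3N. For both, Control 2 lay with the NT-3N arrays. Counts of calls, of 2-fold differences and of groups that did not overlap are given with and without such spots.

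**Figure D1:**
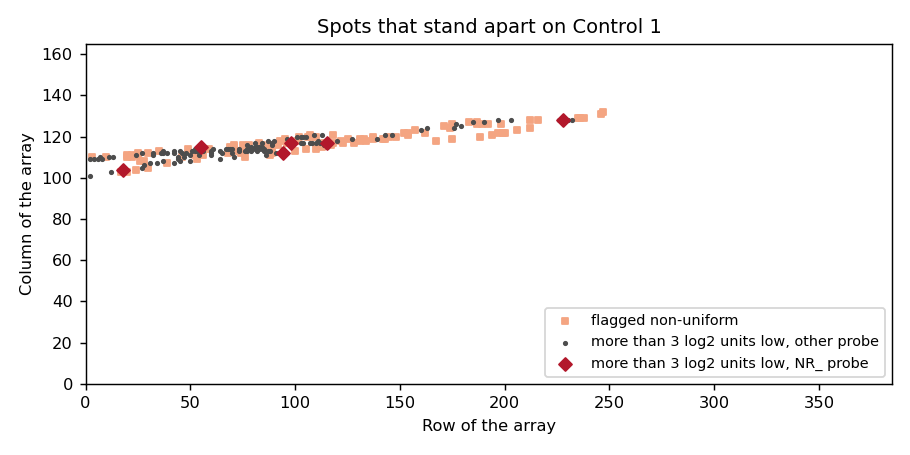
Position of spots on the Control 1 array, with the row of the array across and the column up. Squares are the 106 spots flagged as non-uniform, points and diamonds the probes that read more than 3 log2 units below every other array, diamonds being the 6 NR_ probes. They lie in or beside 1 narrow band of the array.

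The NR_ class was detected less often than mRNA. On the 5 arrays 48.9% to 52.9% of NR_ probes were well above background, against 80.4% to 82.0% of NM_ probes. On no array at all were 1058 NR_ probes (42.7%) well above background, and 1116 (45.1%) were so on all 5. The corresponding shares of NM_ probes were 15.2% and 77.6%. Probes well above background on 2 or more arrays were kept for testing, which 1301 NR_ probes of 1164 named genes passed. Of the 1175 left out, 114 were detected on 1 array and 3 lacked a value after outlier spots were removed. The members just inside the limit were the 67 detected on 2 arrays. Detection differed by the kind of transcript. Of 2037 lncRNA probes 990 (48.6%) were kept, of 276 probes for transcribed pseudogenes 187 (67.8%), and of 51 probes for non-coding transcripts of protein-coding genes 41 (80.4%). All 11 probes for snoRNAs and all 7 for snRNAs were kept, while none of the 6 the table lists as antisense RNA was. The protocol named in the labels, Quick Amp labelling, primes from poly(A) tails, and the part of this in the levels of RNAs without a tail was not tested. More NR_ probes were detected on every Control array and on no NT-3N array (23, or 0.929%) than the reverse (3, or 0.121%). NM_ probes leaned the same way, with 120 (0.405%) against 24 (0.081%), so this is not particular to NR_ probes. Detection on every array means 2 arrays in Control and 3 in NT-3N. The dimmest signal called well above background lay at a log2 signal of 3.33 and 3.40 on the Control arrays and 3.67 to 3.70 on the NT-3N arrays, so the detection limit moved with the groups.

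**Figure D2:**
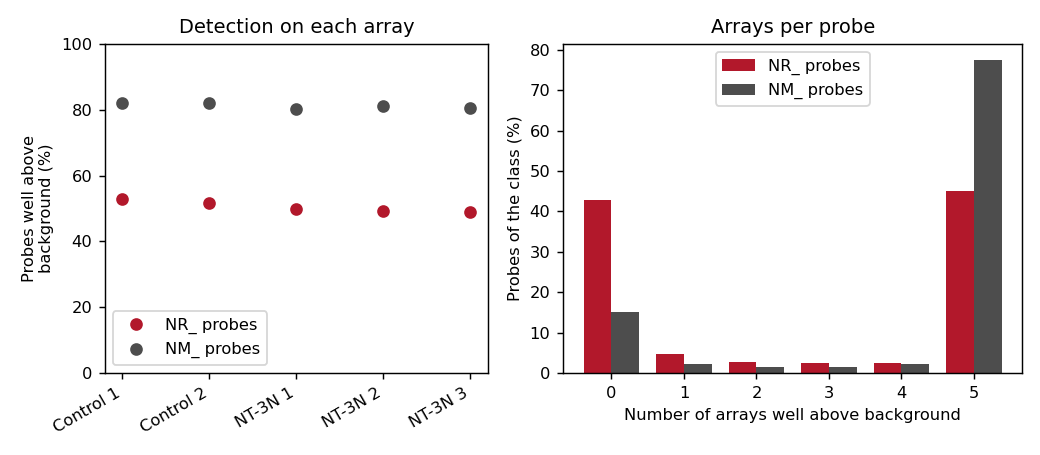
Left, percent of probes well above background on each of the 5 arrays for NR_ and NM_ probes. Right, percent of each class by the number of arrays on which a probe was well above background. NR_ probes sit near 50% on every array against 80% or more for NM_, and 42.7% of NR_ probes were detected on no array.

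Few non-coding RNAs passed the test. At an adjusted p under 0.05 (limma, Benjamini-Hochberg over all 41590 kept probes), 1 of the 1301 NR_ probes was higher in NT-3N and 0 were lower, or 0.0769%. Over all kept probes 0.168% passed, 0.13% higher and 0.0385% lower, and of the 24428 NM_ probes 63 did (0.258%). At an unadjusted p under 0.05 there were 129 NR_ probes (9.92%) against 9.54% of all probes, and 119 of 1249 (9.53%) without spots near a non-uniform one. Of the 129, 76 were higher and 53 lower, and of all probes 4.89% were higher and 4.64% lower. With a change of at least 2-fold besides, 14 NR_ probes were higher (1.08%) and 7 lower (0.538%), against 0.76% and 0.466% of all probes. Gm1976 and Gm20556, both in the band of low spots on Control 1, were among the 14, and 12 were left without spots near a non-uniform one. In 349 NR_ probes (26.8%) the arrays of the groups did not overlap, against 28.2% of all probes, and in 330 (26.5%) of the 1245 left without those in or near the band. These shares lay near those of all probes and are not a result about NR_ probes as a class.

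The typical difference was close to 0 in both classes. The median log2 fold change was -0.02 for NR_ and -0.01 for NM_ probes, and the middle 95% ran from -0.73 to 0.75 and from -0.68 to 0.73. The error behind each value was larger for NR_ probes, with a median standard error of 0.21 against 0.14 for NM_ (log2). The median SD between arrays was 0.15 in Control and 0.21 in NT-3N for NR_ probes, and 0.10 and 0.15 for NM_ probes. Over the kept NR_ probes, which are not independent replicates, array pairs correlated at 0.977 to 0.991. The highest value was that of NT-3N 2 with NT-3N 3. The value of 0.984 between the Control arrays lay below those of Control 2 with NT-3N 2 and with NT-3N 3 (0.985 and 0.986).

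**Figure D3:**
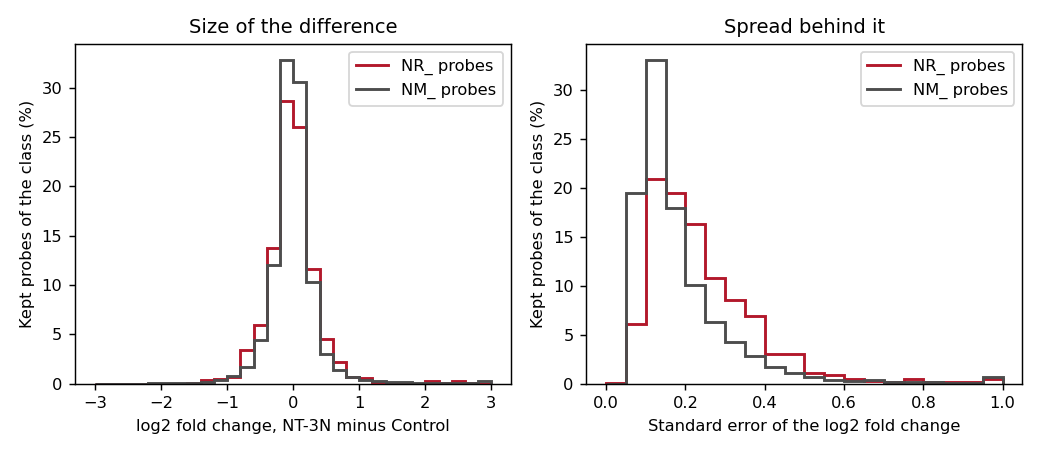
Left, distribution of the log2 fold change (NT-3N minus Control) over kept NR_ and NM_ probes, in percent of each class. Right, distribution of its standard error, with values of 1 and above in the last bin. Both classes centre near 0, and the standard errors of NR_ probes lie further to the right (median 0.21 against 0.14).

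The called member was Gm10638 (NR_027829), a lncRNA gene on chromosome 8 that overlaps Siah1a, which encodes a ubiquitin ligase. Its log2 signal was 8.08 and 7.80 in Control and 9.37, 9.17 and 9.58 in NT-3N. All 3 NT-3N arrays lay above both Control arrays by more than the spread within either group. It was 2.69-fold higher (log2 fold change 1.43, SE 0.16), with a limma adjusted p of 0.049. The probe of Siah1a itself read 10.70 and 10.60 in Control and 10.93, 10.85 and 10.78 in NT-3N, a log2 fold change of 0.21 with an adjusted p of 0.56. The call of Gm10638 sat close to the threshold. It was lost when any 1 of the 5 arrays was left out, and over 18 alternative settings its log2 fold change stayed between 1.16 and 1.57 with the call kept in 6.

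Besides Gm10638, 9 probes made up the 10 largest positive differences among the 69 that were well above background on all arrays, did not overlap between groups and had an unadjusted p under 0.05. None reached an adjusted p under 0.05. The lncRNA Gm4827 on chromosome 16 read 4.94 and 3.83 in Control and 6.67, 6.99 and 7.12 in NT-3N. The difference of 2.54 (SE 0.34, adjusted p = 0.080) was the largest among these 10. Cd47, the neighbour of Gm4827, encodes a surface protein that inhibits phagocytosis and had 0.18. Without Control 1 the log2 fold change of Gm4827 was 3.09. Gm4827 was called with array weights and after normexp background correction, where its log2 fold change was 1.22. That correction adds 50 to each signal before the log2 step, which by itself makes differences of dim probes smaller.

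H19, an imprinted RNA of fetal tissues that is the precursor of a microRNA, read 4.47 and 3.63 in Control and 5.28, 6.71 and 6.63 in NT-3N. NT-3N 1 lay nearer to the controls than to the other treated arrays. The log2 fold change was 2.16 (SE 0.50, adjusted p = 0.26), and 0.88 after normexp background correction. Igf2, the growth factor gene that shares an imprinted domain with H19, was measured by a pair of probes with log2 fold changes of 0.04 and -0.18, and both overlapped between groups.

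D730005E14Rik overlaps Apobec3, which encodes a cytidine deaminase that restricts retroviruses. It read 4.75 and 5.34 in Control and 5.95, 6.43 and 6.47 in NT-3N, a log2 fold change of 1.24 (SE 0.27, adjusted p = 0.23), and 0.52 after normexp. The 3 probes of Apobec3 had log2 fold changes of 0.91, 0.74 and 0.11, each without overlap between the groups and none at an adjusted p under 0.05. The brightest of them had the smallest value.

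4833419F23Rik lies within 10 kb of Map3k8, which encodes a kinase upstream of ERK signalling. The RNA read 5.34 and 5.67 in Control and 6.42, 6.64 and 6.77 in NT-3N, a 2.15-fold difference (SE 0.19 on the log2 scale, adjusted p = 0.15). Map3k8 read 5.60 and 5.49 in Control and 6.88, 6.81 and 6.72 in NT-3N, with a log2 fold change of 1.26 (SE 0.15, adjusted p = 0.059). Both were higher on every NT-3N array than on either Control array.

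The other positive differences were smaller or more variable. 1700003I22Rik had a log2 fold change of 1.27 (SE 0.45), with NT-3N 2 at 7.07 just above Control 1 at 6.96, and 0.76 without Control 2. D630010B17Rik had 1.16 (SE 0.29), and 3300005D01Rik 1.04 (SE 0.24), with its NT-3N arrays at 6.61, 6.59 and 6.60 and its Control arrays at 5.94 and 5.19, and 0.66 without Control 2. Gm10791 had 0.81 (SE 0.32). Gsdmcl2, a transcribed pseudogene of the gasdermin C family, read 3.90 and 4.12 in Control and 5.77, 4.95 and 4.55 in NT-3N, a log2 fold change of 1.08 (SE 0.39). The gasdermin C genes beside it on chromosome 15, Gsdmc, Gsdmc2, Gsdmc3 and Gsdmc4, had log2 fold changes of 0.11, 0.06, 0.10 and 0.28, all overlapping between groups. These genes are close copies, so a probe may share signal between them.

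**Figure D4:**
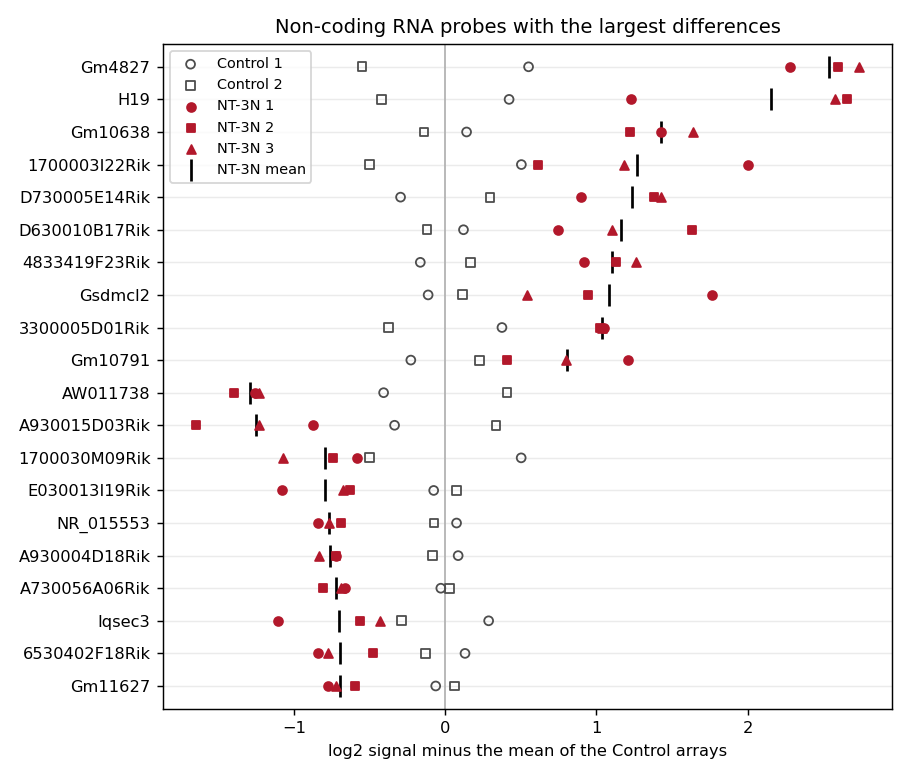
log2 signal of the 20 NR_ probes with the largest positive and negative differences, each array plotted as its difference from the mean of the Control arrays. Open symbols are Control arrays, filled symbols NT-3N arrays, and the bar is the NT-3N mean. By the rule that chose them no probe overlaps between groups, and Gm10638 is the 1 with an adjusted p under 0.05.

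The 10 largest negative differences, from 45 candidates, ran from -1.30 to -0.70 on the log2 scale, and none reached an adjusted p under 0.05. AW011738 (chromosome 4) read 5.34 and 6.15 in Control and 4.49, 4.35 and 4.52 in NT-3N, a log2 fold change of -1.30 (SE 0.30, adjusted p = 0.25). Its second probe had -0.63. A930015D03Rik, which overlaps the MHC class I gene H2-T24, read 7.68 and 8.35 in Control and 7.14, 6.37 and 6.79 in NT-3N, with a difference of -1.25 (SE 0.29, adjusted p = 0.25), while the brighter probe of H2-T24 had -0.32 and the dimmer 0.10.

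Gm11627 on chromosome 11 had the smallest error among them, with 9.30 and 9.43 in Control and 8.59, 8.77 and 8.64 in NT-3N, a difference of -0.70 (SE 0.11, adjusted p = 0.13). A930004D18Rik, E030013I19Rik and A730056A06Rik had -0.76, -0.80 and -0.72. The probe of NR_015553 had -0.77 and lay near the non-uniform spots of Control 1, where it read 6.46 against 6.31 on Control 2. 6530402F18Rik had -0.70, with -0.02 for the overlapping Ntng2, which encodes netrin-G2. In 1700030M09Rik (-0.80) Control 2 at 7.46 lay just above NT-3N 1 at 7.38, and the value was -0.30 without Control 1 and -1.30 without Control 2. An NR_ probe of Iqsec3, a protein-coding gene for a synaptic exchange factor, had -0.70, and -0.41 without Control 1. After normexp background correction the 20 largest differences were all closer to 0. The positive ones ran from 0.26 (Gm10791) to 1.22 (Gm4827), and the negative ones from -0.91 (A930015D03Rik) to -0.24 (A730056A06Rik). That correction adds 50 to each signal, so for dim members this shrinkage was built into the setting. The smooth muscle markers were lower on the same arrays as these members, and their part in these values was not tested.

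Some members were detected in 1 group only. Their folds are bounds, set against the dimmest signal called well above background on the arrays of the other group or the probe's own signal where higher. Such a bound describes the observed means and is not the lower end of a confidence interval. Each of these members passed the filter through the group where it was high. 9130015L21Rik on chromosome 2 read 2.41 and 2.09 in Control, not well above background, and 4.53, 4.70 and 4.84 in NT-3N, at least 2.51-fold higher (adjusted p = 0.080). After normexp background correction its log2 fold change was 0.43 (adjusted p = 0.26), below that bound. The 50 added to each signal in that setting makes differences of dim probes smaller by construction. C730027H18Rik was at least 1.87-fold higher, from 3.46 and 3.28 to 4.57, 4.27 and 4.16 (adjusted p = 0.42). With normexp its log2 fold change was 0.12, below its bound too. C730027H18Rik lies within 10 kb of Bicc1, which encodes an RNA-binding protein, and Bicc1 was called, with a log2 fold change of 1.11 (adjusted p = 0.024). In the other direction Mhrt was at least 1.58-fold lower, from 4.28 and 4.43 to 3.73, 2.65 and 2.44 (adjusted p = 0.45). Mhrt is transcribed within the locus of Myh7, a slow myosin heavy chain gene, which had a log2 fold change of -0.49 (adjusted p = 0.44). Gm6042 and Gm13539 were at least 1.47-fold and 1.08-fold lower (adjusted p = 0.52 for each), and the spot of Gm6042 lay near the non-uniform spots of Control 1. After normexp background correction Mhrt, Gm6042 and Gm13539 had log2 fold changes of -0.26, -0.27 and -0.16.

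Of the listed snoRNA host genes 15 were on the array, with 16 probes, and all were well above background on every array. In NT-3N 12 probes were higher and 4 lower, with a median log2 fold change of 0.19 against -0.02 for all kept probes. None passed at an adjusted p under 0.05, where 0.168% of all probes did. At an unadjusted p under 0.05, 6 of the 16 were higher and 0 lower, against 4.89% and 4.64% of all probes, and these 6 did not overlap between groups, where 28.2% of all probes did not.

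Snhg1 read 8.66 and 8.72 in Control and 9.09, 9.15 and 9.18 in NT-3N, a log2 fold change of 0.45 (SE 0.10, adjusted p = 0.24). Snhg4 read 6.62 and 6.78 in Control and 7.22, 7.34 and 7.34 in NT-3N, a log2 fold change of 0.60 (SE 0.13). Snhg12 read 10.53 and 10.41 against 10.84, 10.86 and 11.03, a log2 fold change of 0.44 (SE 0.10). In all 3 the gap between the groups was larger than the spread within them. Snhg5 had 0.42 (SE 0.09), Snhg6 0.45 (SE 0.13) and Snhg8, the brightest of the 6, 0.21 (SE 0.08). The differences were small, at most 1.51-fold.

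The remaining hosts showed no such gap. Snhg3 had 0.26, Epb41l4aos 0.20 and Snhg16 0.18, each overlapping between groups. The probes of Snhg15 had 0.11 and 0.10. Snhg7 had -0.12, and Snhg9, Snhg10, Snhg18 and Snhg20 lay between -0.06 and 0.03. The nearest protein-coding genes of the 6 that were higher had log2 fold changes of 0.01 for Slc3a2 (Snhg1), 0.04 for Matr3 (Snhg4), 0.16 for Trnau1ap (Snhg12), -0.02 for Zfp949 (Snhg5), -0.21 for Mcmdc2 (Snhg6) and 0.33 for Prss12 (Snhg8). The direction of each of the 6 was the same under all 18 alternatives.

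**Figure D5:**
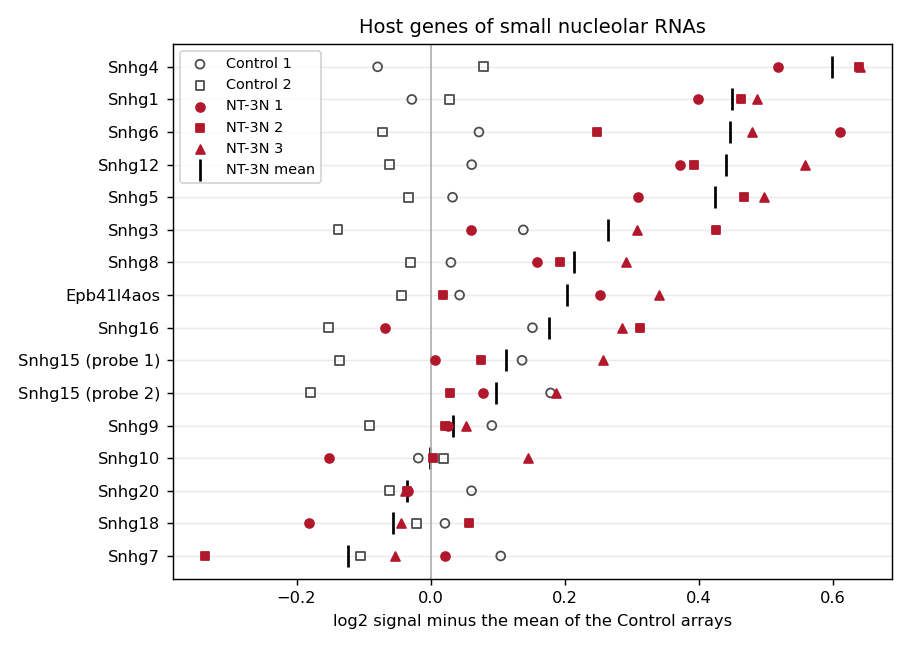
log2 signal of the 16 probes of snoRNA host genes, each array plotted as its difference from the mean of the Control arrays, ordered by the NT-3N mean (bar). Open symbols are Control arrays and filled symbols NT-3N arrays. In Snhg4, Snhg1, Snhg6, Snhg12, Snhg5 and Snhg8 all NT-3N arrays lie above both Control arrays.

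Of the 15 kept probes of 8 imprinted genes 2 were higher, H19 and Mirg (0.16), and 13 lower, with a median log2 fold change of -0.17. The 13 came from 6 genes, with 4 each for Meg3 and Kcnq1ot1, and over all kept probes 46.8% were higher. None was called, and at an unadjusted p under 0.05 only H19 was higher and Peg13 lower. Peg13, an RNA transcribed within an intron of Trappc9, had the lowest unadjusted p among the 13. It read 11.91 and 12.00 in Control and 11.53, 11.51 and 11.73 in NT-3N, a log2 fold change of -0.36 (SE 0.10, adjusted p = 0.36). The probes of Trappc9 had 0.00 and 0.02.

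The maternally expressed RNAs of the Dlk1-Dio3 domain, which are parts of a common transcription unit that holds microRNAs and snoRNAs, varied between the treated arrays. Meg3 read 12.05 and 11.63 in Control and 10.97, 12.22 and 11.78 in NT-3N by its brightest probe. Rian read 9.55 and 9.18 against 8.48, 9.64 and 9.62, and Mirg 8.76 and 8.25 against 7.97, 9.05 and 8.98. By these probes the lowest array for all 3 RNAs was NT-3N 1, which had the lowest smooth muscle sum too. Among the treated arrays NT-3N 1 had the highest sums of pancreatic enzyme genes (12.28) and adipocyte markers (13.37) as well. The part of these tissue differences was not tested. Another probe of Meg3 read 10.80 and 10.78 in Control and 10.58, 10.66 and 10.46 in NT-3N, without overlap and lowest on NT-3N 3. The 4 probes of Meg3 had log2 fold changes between -0.30 and -0.09, and 2 of them changed sign under other settings, to 0.16 and 0.32 without NT-3N 1. Kcnq1ot1 and Airn, long antisense RNAs that silence neighbouring genes on the paternal allele, had values from -0.17 to -0.12 and of -0.20 and -0.24.

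Xist, which coats the inactive X chromosome, read 9.53 and 9.39 in Control and 9.77, 9.45 and 9.55 in NT-3N, a log2 fold change of 0.12 (SE 0.13, adjusted p = 0.79). Jpx and Ftx, its neighbours and activators, had 0.14 and 0.24. Of the nuclear and structural RNAs all 15 probes were kept, with 10 higher and 5 lower and a median of 0.06. Neat1, the scaffold of paraspeckles, had 0.10 by both its probes. Firre, an X-linked RNA involved in nuclear organisation, read 10.79 and 10.69 in Control and 11.16, 11.02 and 11.04 in NT-3N, a log2 fold change of 0.33 (SE 0.09, adjusted p = 0.36). It was the 1 probe of the 15 with an unadjusted p under 0.05. Rn7sk, Rmrp, Rpph1 and Norad lay between -0.08 and 0.10, and Terc, the RNA of telomerase, had -0.39. Malat1 and Gas5 were not matched by an NR_ probe.

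Fendrr was higher by both its probes. The brighter read 11.92 and 11.83 in Control and 12.23, 12.44 and 12.57 in NT-3N, a log2 fold change of 0.54 (SE 0.12, adjusted p = 0.24). The dimmer had 0.50 (SE 0.14). Foxf1 read 12.03 and 11.92 in Control and 12.15, 12.71 and 12.67 in NT-3N, a log2 fold change of 0.53 (SE 0.18, adjusted p = 0.43). On NT-3N 1, where both had their lowest treated value, the smooth muscle sum was lowest. The pancreatic and adipocyte sums there were the highest among the treated arrays, and the part of these tissue differences was not tested. Of the 8 probes for RNAs of HOX clusters and mesenchyme 5 were higher and 3 lower. Those other than Fendrr did not pass at an unadjusted p under 0.05, with Hoxb5os at -0.40 and -0.42, Hoxa11os at 0.19 and Hottip at 0.21.

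Of 7 kept probes of microRNA host genes 3 were higher and 4 lower. Dnm3os, a microRNA precursor of mesenchyme, read 6.87 and 6.95 in Control and 6.37, 6.55 and 6.32 in NT-3N, a log2 fold change of -0.50 (SE 0.15, adjusted p = 0.39). Mirt1 had the largest value of this list, 0.67, with overlap between the groups. Mir22hg had 0.19 and Dleu2 -0.21. Of 8 kept probes for RNAs linked to inflammation, p53 or Myc 5 were higher and 3 lower. Ptgs2os2 read 5.03 and 5.20 in Control and 4.53, 4.16 and 3.43 in NT-3N. It was well above background on 4 arrays, with a log2 fold change of -1.07 (SE 0.37, adjusted p = 0.46). Ptgs2, the inducible cyclooxygenase gene after which it is named, had -0.52 (adjusted p = 0.53). Pvt1, the neighbour of Myc, had 0.29 and 0.48 and Lncpint 0.43 and 0.38, none at an unadjusted p under 0.05. Morrbid, which represses Bcl2l11 in short-lived myeloid cells, had 0.15.

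For 73 kept probes whose gene symbol names an opposite-strand partner, the RNA and its partner had the same sign in 51 (69.9%). Pearson's r across these pairs was 0.31 and Spearman's rho 0.44, given as a description, since pairs share arrays and the groups. Of these 73, 13 antisense RNAs had an unadjusted p under 0.05, where 9.54% of all probes did, and 10 of the 13 had the sign of the partner. Dio3os and Dio3, the gene of the deiodinase that inactivates thyroid hormone, had 0.67 and 0.85. Foxd2os and Foxd2 had -0.29 and -0.31. Ccdc34os and Ccdc34 differed in sign, with -0.55 and 0.28, both at an unadjusted p under 0.05.

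Over the 968 pairs of an NR_ probe and its nearest protein-coding gene the relation was weaker, with the same sign in 57.6% and r of 0.09. In the 268 pairs that did not overlap and lay within 10 kb r was 0.31 and rho 0.23. In the 427 that overlapped r was 0.04 and rho 0.17. Whether an overlapping pair lies on the same strand was not worked out, so a probe's signal and that of its partner cannot be separated there.

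For 24 probes of pseudogenes named after a parent gene, the parent had the same sign in 83.3%. Some parents (Pisd, Smarca5 and C4bp) were set beside more than 1 probe, so these pairs are not independent. Some parent values were small, such as 0.03 for Pisd, where the sign says little. The pseudogene with the lowest unadjusted p was Gpx2-ps1, with a log2 fold change of 0.54 (adjusted p = 0.20) against 0.37 for Gpx2, a glutathione peroxidase of gut epithelium. Pseudogene and parent are near-identical in places, so their signals may be shared. Of 73 genes with several NR_ probes 55 had all probes on the same side of 0, as did 8 of the 9 with a probe at an unadjusted p under 0.05. In 36 protein-coding genes with both NR_ and NM_ probes the mean values had the same sign in 25, and in 22 of the 31 without a probe in or near the band on Control 1.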

How the data were processed

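RNA of 1 colon per array was labelled with Cy3 and hybridised to single-colour Agilent SurePrint G3 mouse arrays. The authors extracted spots with Agilent Feature Extraction 11.0.1.1, per the submitters' processing notes, and deposited for every spot a processed intensity (background-subtracted, not scaled between arrays), median spot and background intensities, and flags. The deposited log2 table, which the authors had log-transformed and quantile-normalized, held 37380 probes, 1093 of them NR_ probes, and correlated with the values used here at 0.99998 or more. It served as an alternative. The genome build of the array design differs from that of the gene table, so the table gave only names and neighbours, and coordinates only of start regions.

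From the processed intensity, 59305 noncontrol spots per array less 69 to 184 outlier spots were log2-transformed, averaged per probe and quantile-normalized over all 56605 probes. A probe was kept if well above background on at least 2 arrays, with values on both Control and at least 2 NT-3N arrays. No spot was saturated. Groups were compared with limma 3.58.1 (R 4.3.3) by two-sided lmFit and eBayes tests with an intensity trend, and p-values were adjusted by Benjamini-Hochberg over every kept probe. A local-pooled-error test, the one in the study's methods, was run as an alternative. Normexp background correction, another alternative, used the median spot signal and an added offset of 50. The depth of an array is its signal over background, and the number of arrays limits the precision. The labels do not say that samples of a group are independent cultures or litters, so p-values measure the spread between these samples. The limma test, its form with a replicate block and the local-pooled-error test were run on simulated data. The other alternative fits were not.

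Accessions were matched to the RefSeq gene table without version. Named are every called NR_ probe; the 10 largest differences each way among NR_ probes well above background on all arrays with an unadjusted p under 0.05 and no overlap; up to 3 each way detected in 1 group only; listed genes at an unadjusted p under 0.05; and Malat1, Neat1, Xist, H19, Meg3 and Gas5. The other genes printed were chosen after their values were seen. The members, lists and tests were chosen with earlier results of these data known.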

Additional observations from a re-analysis of the deposited data

How the results depend on the processing

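Counts of calls were small and depended on the settings. For NR_ probes called higher (1 in the report), the count was 0 with scaling to the 75th percentile, with no filter on dim probes, without the intensity trend, with the brightest probe of each accession, with outlier spots kept and with the replicate number as a block. It was 3 with array weights and 9 with the local-pooled-error test, which called 2 lower. Gm10638 was kept by 6 of 18 alternatives, its adjusted p running from 0.0024 to 0.45. For NM_ probes the calls higher and lower (50 and 13) became 132 and 52 with array weights, 258 and 190 with the local-pooled-error test, 4 and 0 with no filter, 3 and 0 without the trend, and 0 and 0 with the replicate block. The calls lower were 8 with normexp and 21 with robust variance.

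For the 2-fold rule (NR_ 14 higher and 7 lower, NM_ 216 and 109) the NR_ counts were 2 and 0 with normexp, 9 and 2 with the deposited log2 values, 22 and 24 with no filter, and 9 and 2 for probes above background on all 5 arrays. The NM_ counts were 89 and 32 with normexp and 141 and 70 with the deposited values. They were 190 lower with no filter, 143 higher for probes above background on all 5 arrays and 333 higher with the local-pooled-error test. The offset of 50 in normexp makes 2-fold differences of dim probes rarer, and the deposited values covered 1093 NR_ probes against 1301. How much of these shifts this explains was not tested. Over the runs that left out 1 array, NR_ calls higher ranged from 0 to 5 and lower stayed at 0, NM_ calls from 0 to 132 higher and from 0 to 19 lower, the NR_ 2-fold counts from 10 to 21 and from 4 to 13, and the NM_ ones from 190 to 343 and from 108 to 184.

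The runs differed by array. Without Control 2, which leaves Control 1 as the only control, 5 NR_ probes were called, namely Gm14296, Gm1976, E130008D07Rik, 4931420L22Rik and Tmem238l, and all of them lie in the band of low spots on Control 1. Of the 9 called higher by the local-pooled-error test, 4 lie there (Gm14296, Gm1976, E130008D07Rik and Tmem238l); the others were Pisd-ps3, Gm4827, D730005E14Rik, Gm10638 and H19, and A930015D03Rik and 3100003L05Rik were called lower. Without Control 1 the call was Gm4827, and without NT-3N 1, 2 or 3 none was made, with 214, 84 and 86 NR_ probes at an unadjusted p under 0.05. With 1 control left, its spread is taken from the NT-3N arrays. Leaving out all spots near non-uniform ones, chosen after seeing the data, left 1249 NR_ probes with 1 called, Gm10638, and 2-fold counts of 12 and 7.

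Whether replicate numbers pair the samples could not be decided. Deviations of same-numbered arrays correlated at 0.11 and -0.0008 over NR_ probes. With 2 Control arrays the deviations of each mirror those of the other, so these values cannot exclude pairing. With the replicate block 88 NR_ probes had an unadjusted p under 0.05, against 129. Both of the less stable probes of Meg3 changed sign: that at -0.18 became 0.10 with array weights, 0.03 without Control 1 and 0.16 without NT-3N 1 (range over arrays left out -0.46 to 0.16), and that at -0.09 became 0.21 with array weights, 0.25 with the local-pooled-error test and 0.32 without NT-3N 1 (range -0.33 to 0.32). The median log2 fold change of NR_ probes stayed between -0.05 and 0.02 under every alternative.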
